A study of Sus scrofa with 10 samples.

Results

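Multiciliogenesis is the programme by which an epithelial cell grows many motile cilia, and 7 factors of this programme were examined in porcine ovaries, namely FOXJ1, RFX2, RFX3, TP73, MYB, MCIDAS and CCNO. They were taken by name from the deposited gene table, as the protein-coding locus that carries the symbol, and all 7 were found among 19972 protein-coding loci. Ovary RNA had been sequenced from 10 gilts with 1 library per pig, and each group, control and rpFSH treatment, held 5 pigs. All 10 gilts had received altrenogest, an oral progestin, from the age of 210 days at 20 mg per day over 18 days, followed by 2 days without it. The rpFSH treatment group was then given 1000 IU of recombinant pig follicle-stimulating hormone (rpFSH), the hormone that drives follicle growth, and the control group was given saline. Ovaries were sampled at 234 days of age, once the follicles on their surface had been taken off, so that each value is an average over the remaining tissue. Per pig, the table gives a whole-number count and an FPKM (the fragment count scaled to the length of the locus and to the size of the library) for every locus. Total counts lay between 64873797 and 75114003, so that 3 counts, taken here as the smallest number that can be told from 0, correspond to a CPM (the count scaled to the library total, whatever the length) of 0.0399 to 0.0462.

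In a cell that will become multiciliated, the regulators GMNC and MCIDAS bind E2F proteins and switch on the genes that multiply centrioles, among them CCNO. MYB acts early in the same cells, and TP73, FOXJ1 and the RFX proteins switch on the genes that build and move the cilium, such as those of the dynein arms and radial spokes. Multiciliated cells are known from the airway, the brain ventricles and the lining of the oviduct, whereas follicle, stromal and luteal cells of the ovary carry no motile cilia.

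FOXJ1, TP73 and MCIDAS stood out in 2 control pigs and were scarce or at 0 in the other 8. The level of MCIDAS was low in these 2 pigs as well, with an FPKM of 0.493 and 0.889. MYB and RFX2 were highest in the same 2 pigs, and RFX3 and CCNO varied less sharply between pigs. Control replicate 5 had the highest FPKM and control replicate 2 the second highest for 6 of the 7 factors, the exception being CCNO. Tests were run over 15170 protein-coding loci whose FPKM averaged at least 0.1, and these 2 pigs came first and second in this order at 5.60% of them. In bulk ovary RNA, fewer cells of a type and less RNA per cell cannot be told apart. Because these 2 control libraries stand apart for the genes examined here, every comparison of the groups is given with all pigs and without these 2. The fit without them was added after the data were seen.

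The study compared the groups to find out which ovarian transcripts change after rpFSH. By edgeR's quasi-likelihood test on the counts, with the limits the study used (an unadjusted P under 0.05 and a log2 fold change above 1 or below -1), 4 of the 7 factors were called lower in the rpFSH treatment group and 0 were called higher. The 4 were FOXJ1, TP73, MYB and MCIDAS. Of all tested loci, 2.58% were called lower and 0.508% higher. FOXJ1, TP73 and MCIDAS reached the mean FPKM of 0.1 only through the control group, where they were high, and a locus that enters the test in this way has to differ, so that their calls are given as a description. The same 4 were called when no filter was set. After Benjamini-Hochberg adjustment over all tested loci, 0 factors and 0 loci in all had an adjusted p under 0.05 in edgeR, the smallest being 0.992, while 722 loci had an unadjusted P under 0.05. DESeq2 on the same counts called the same 4 factors lower, where it called 2.94% of all loci lower, and 0.58% of all loci had an adjusted p under 0.05, MYB among them (DESeq2 adjusted p = 0.0302). With control replicates 2 and 5 left out, edgeR called 0 of the 6 factors that could be fitted lower and 1, TP73, higher, against 0.771% of all loci called lower and 2.02% higher. The median log2 fold change of all tested loci was -0.01 with all pigs and 0.05 without the 2 pigs. In none of the 7 factors were all pigs of the rpFSH treatment group below all controls, a separation that 0.547% of all tested loci had.

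**Figure D1:**
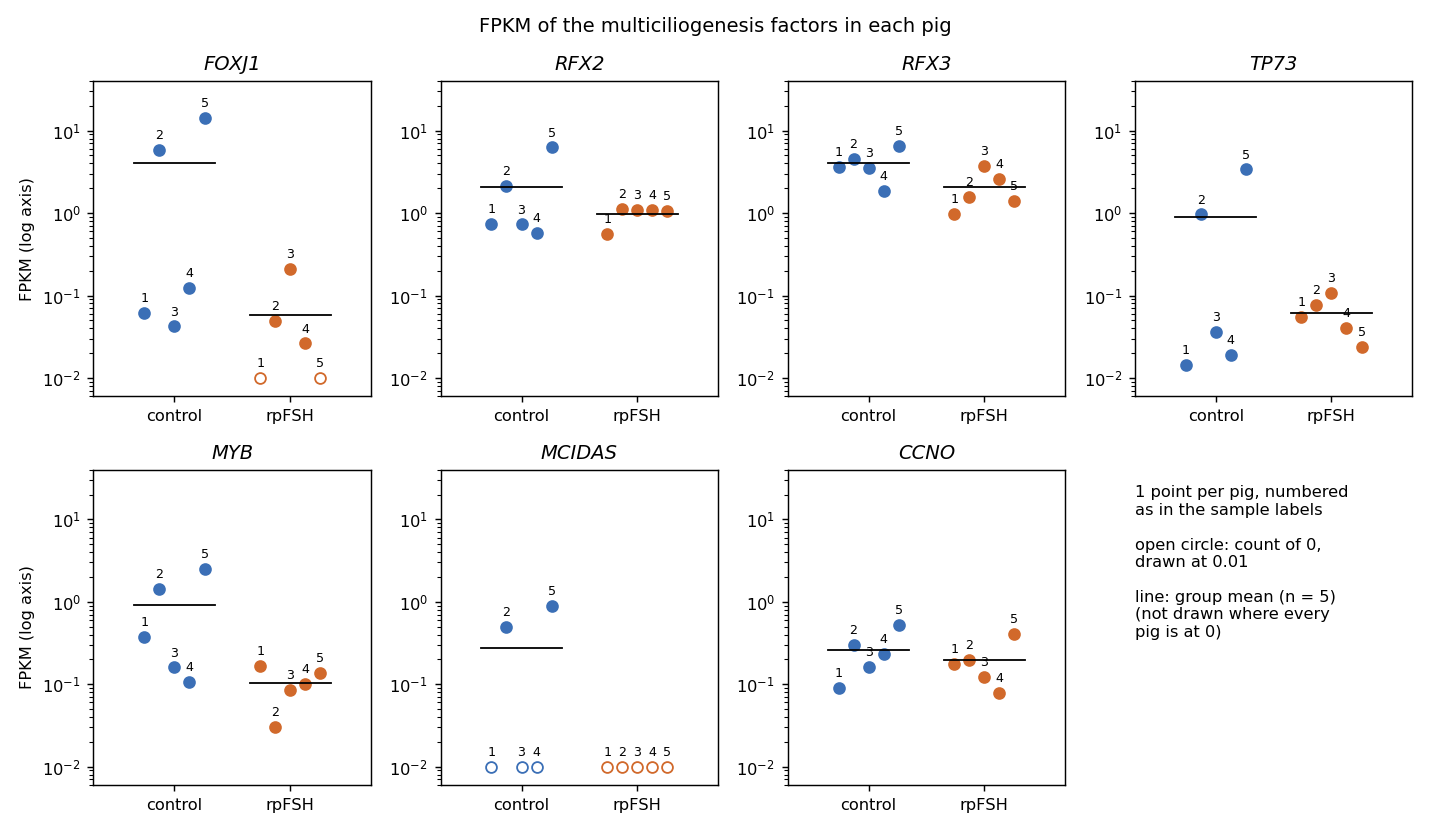
FPKM of each of the 7 factors (vertical log axis) in the 5 control pigs and the 5 rpFSH pigs, with 1 numbered point per pig, a line at the group mean and open circles for a count of 0. Control replicates 5 and 2 are the 2 highest points in every panel but that of CCNO. The other 3 controls lie within the range of the rpFSH pigs for FOXJ1, RFX2, RFX3, MCIDAS and CCNO, but not all of them for TP73 and MYB.

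MCIDAS (ENSSSCG00000036183, chromosome 16, 34377960 to 34384438, minus strand in Sscrofa11.1) is a coactivator that acts early in the programme. It had a count of 50 in control replicate 2 and of 92 in control replicate 5, corresponding to an FPKM of 0.493 and 0.889. In the other 8 pigs its count was 0. A count of 0 allows up to 3 counts, and with every rpFSH library set at this floor the mean level of 0.379 CPM in the control group was against 0.0428 CPM, at least 8.86-fold lower in the rpFSH treatment group. This bound covers counting error only and rests on 2 of 5 control pigs. MCIDAS was called lower by edgeR (adjusted p = 0.992), whose fitted fold change is no bound where 1 group is at 0. A two-sided exact permutation test over all assignments of the pigs, on log2 (FPKM + 0.1), gave p = 0.444. The edgeR call was lost without control replicate 2 and without control replicate 5, which leave 1 control with a count above 0. Without control replicates 2 and 5 every count was 0 and no fit was possible.

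CCNO (MSTRG.14582, chromosome 16, 34386446 to 34390651, minus strand) encodes the cyclin-like protein needed for the mass production of centrioles. Its FPKM was 0.0898, 0.302, 0.161, 0.232 and 0.524 in control replicates 1 to 5. It was 0.176, 0.197, 0.123, 0.0791 and 0.403 in rpFSH replicates 1 to 5. CCNO was detected in all 10 pigs, with counts from 21 to 147, and the second highest pig was rpFSH replicate 5. The control group had a mean of 0.262 ± 0.167 and the rpFSH treatment group one of 0.196 ± 0.125 (SD, n = 5 each). The edgeR log2 fold change was -0.34 ± 0.549 (SE), with a 95% interval from -1.55 to 0.87, and the exact permutation p was 0.516. It was 0.35 (95% interval from -0.96 to 1.66) without control replicates 2 and 5, and 0.069 without control replicate 5 alone. Unlike MCIDAS, its neighbour on the same strand at a distance of 2007 bp, CCNO was therefore present in pigs in which the other had no count.

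TP73 (MSTRG.28043, chromosome 6, 65188919 to 65228989, plus strand), a transcription factor that acts upstream of FOXJ1 in multiciliated cells, had an FPKM of 0.964 in control replicate 2 and 3.39 in control replicate 5. In control replicates 1, 3 and 4 it was 0.0143, 0.0365 and 0.0191. In rpFSH replicates 1 to 5 it was 0.0554, 0.0776, 0.108, 0.0408 and 0.0238. The 3 low controls were below 4 of the 5 rpFSH pigs. The means were 0.885 ± 1.46 and 0.0612 ± 0.0329 (SD, n = 5 each), and the edgeR log2 fold change was -3.73 ± 1.41 (SE, 95% interval from -6.86 to -0.60, adjusted p = 0.992). The two-sided exact permutation test gave p = 0.437. Without control replicates 2 and 5 the direction turned, with a log2 fold change of 1.44 ± 0.623 (SE, 95% interval from 0.02 to 2.85, edgeR adjusted p = 0.728). This value rests on counts of 8, 19 and 12 in the control group and of 14 to 56 in the rpFSH treatment group. Since the 2 highest controls were the pigs removed, an upward move was set by that choice, and the interval does not allow for it. The call was lost without control replicate 5 (log2 fold change -1.96), without rpFSH replicate 4 (-3.61) and without rpFSH replicate 5 (-3.53).

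MYB (MSTRG.469, chromosome 1, 28818193 to 28857311, minus strand) is a transcription factor of progenitor cells, best known from blood formation, that is also switched on early in multiciliated cells. Its FPKM was 0.374, 1.44, 0.160, 0.106 and 2.49 in control replicates 1 to 5. In rpFSH replicates 1 to 5 it was 0.168, 0.0303, 0.0857, 0.102 and 0.137. Control replicate 1 was the third highest pig, whereas rpFSH replicate 1 was above control replicates 3 and 4, so that the groups overlapped. The means were 0.913 ± 1.03 and 0.104 ± 0.0523 (SD, n = 5 each), with an edgeR log2 fold change of -3.04 ± 0.868 (SE, 95% interval from -4.96 to -1.12, adjusted p = 0.992). MYB was the 1 factor with an exact permutation p under 0.05 (two-sided, p = 0.0476, adjusted p = 1.00), a limit that 2.93% of all tested loci passed with the lower level in the rpFSH treatment group. With 1 pig left out, this p was under 0.05 without control replicate 1, 3 or 4 and above it without any of the other 7 pigs. Without control replicates 2 and 5 the log2 fold change was -0.96 (95% interval from -2.24 to 0.32, edgeR adjusted p = 0.795).

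FOXJ1 (MSTRG.5728, chromosome 12, 5307131 to 5312250, plus strand) is the forkhead factor that switches on the genes of motile cilia. It had an FPKM of 5.82 in control replicate 2 and 14.1 in control replicate 5, from counts of 1745 and 4363. In control replicates 1, 3 and 4 its FPKM was 0.0618, 0.0421 and 0.123. In rpFSH replicates 2, 3 and 4 it was 0.0488, 0.212 and 0.0262, and the count was 0 in rpFSH replicates 1 and 5. The low controls thus lay within the range of the rpFSH pigs. The means were 4.04 ± 6.17 and 0.0574 ± 0.0887 (SD, n = 5 each), and the edgeR log2 fold change was -6.01 ± 1.94 (SE, 95% interval from -10.3 to -1.71, adjusted p = 0.992). The two-sided exact permutation test gave p = 0.111. FOXJ1 and MYB were called lower in each of the 10 fits that left out 1 pig, but without both control replicates 2 and 5 the log2 fold change of FOXJ1 was -0.29 (95% interval from -3.36 to 2.77).

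RFX2 (MSTRG.18647, chromosome 2, 72949989 to 73051524, plus strand) and RFX3 are winged-helix factors that bind the X-box of cilium genes together with FOXJ1. The FPKM of RFX2 was 0.730, 2.15, 0.727, 0.576 and 6.26 in control replicates 1 to 5. In the rpFSH treatment group it was 0.562 in replicate 1 and between 1.07 and 1.12 in the other 4 pigs. The 3 remaining controls were below these 4 pigs. The log2 fold change was -0.99 ± 0.634 (SE, 95% interval from -2.40 to 0.41, two-sided exact permutation p = 0.556). It was 0.62 (95% interval from -0.01 to 1.24) without control replicates 2 and 5, and -0.0023 without control replicate 5 alone.

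RFX3 (MSTRG.2630, chromosome 1, 218339772 to 218647349, plus strand), which also serves the single primary cilium of other cells, was the factor with the highest mean over all pigs. Its FPKM was 3.60, 4.58, 3.52, 1.86 and 6.52 in control replicates 1 to 5. It was 0.982, 1.58, 3.71, 2.63 and 1.41 in rpFSH replicates 1 to 5. Control replicate 4 was below 2 of the rpFSH pigs, and rpFSH replicate 3 was above 3 of the controls. The means were 4.01 ± 1.71 and 2.06 ± 1.10 (SD, n = 5 each), and the log2 fold change of -0.88 ± 0.406 missed the limits (SE, 95% interval from -1.78 to 0.02, two-sided exact permutation p = 0.0635). RFX3 was called lower when control replicate 4 (log2 fold change -1.06) or rpFSH replicate 3 (-1.21) was left out. Without control replicates 2 and 5 it was -0.46 (95% interval from -1.44 to 0.53).

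**Figure D2:**
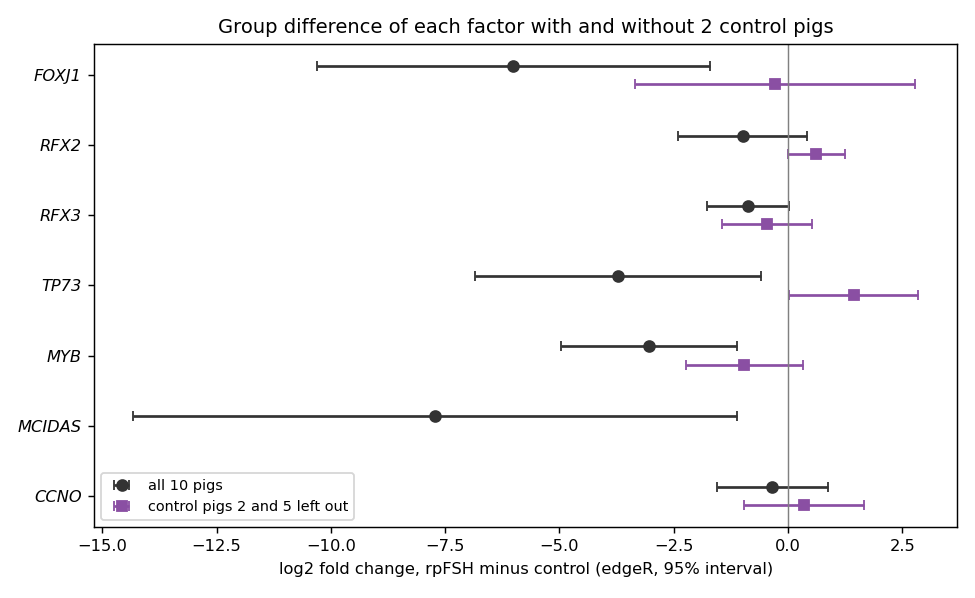
Log2 fold change of each factor, rpFSH minus control (horizontal axis), from edgeR with all 10 pigs (circles) and with control replicates 2 and 5 left out (squares), with bars for the 95% interval. With all pigs 4 intervals lie below 0, and without the 2 pigs the interval of TP73 lies above 0 and the other 5 include 0, while MCIDAS has no square because its counts were then 0.

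Levels of different factors were compared as FPKM, which is per length. Over all 10 pigs the mean FPKM was 3.04 for RFX3, 2.05 for FOXJ1, 1.54 for RFX2, 0.509 for MYB, 0.473 for TP73, 0.229 for CCNO and 0.138 for MCIDAS. This order did not hold within pigs for every neighbour. FOXJ1 exceeded RFX2 in 2 of 10 pigs, control replicates 2 and 5, and the within-pig difference of log2 (FPKM + 0.1), FOXJ1 minus RFX2, was -1.84 ± 1.75 (SD, n = 10). TP73 exceeded CCNO in the same number of pigs, with a difference of -0.33 ± 1.34. MYB exceeded TP73 in 7 of 10 pigs (0.55 ± 0.76), and both differences were smaller than their spread over pigs. RFX2 exceeded MYB in 10 of 10 pigs, with a difference of 1.81 ± 0.86. RFX3 exceeded FOXJ1 in 8 of 10 pigs (2.98 ± 2.02), and CCNO likewise exceeded MCIDAS in 8 of 10 (1.02 ± 0.96). FOXJ1 had the highest group mean in the control group, at 4.04 beside 4.01 for RFX3. In the rpFSH treatment group it ranked below 5 other factors, and the mean FPKM was 2.06 for RFX3, 0.988 for RFX2 and 0.196 for CCNO, the 3 factors that were not called.

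The 2 control pigs also differed from each other. The level in CPM was higher in control replicate 5 than in control replicate 2 for all 7 factors, and the ratio depended on the factor. It was 3.57 for TP73 (exact 95% counting interval from 3.25 to 3.93), 2.97 for RFX2 (2.76 to 3.20) and 2.48 for FOXJ1 (2.34 to 2.62). For MCIDAS it was 1.82 (1.28 to 2.63), for CCNO 1.78 (1.35 to 2.36), for MYB 1.76 (1.60 to 1.94) and for RFX3 1.45 (1.40 to 1.51). These intervals compare 2 libraries and cover counting error only. The intervals of TP73 and FOXJ1 do not overlap, so that the factors did not scale together from 1 pig to the other.

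The other genes of the programme were followed in lists by their role. Over 5 lists (partner regulators, relatives of the factors, Notch pathway, centriole amplification and motile cilium effectors) 80 genes were listed, 67 were matched and 65 were tested. Of these, 25 were called lower in the rpFSH treatment group by edgeR and 0 higher, where 2.58% of all tested loci were called lower. As with FOXJ1, TP73 and MCIDAS, 12 of the 25 entered the test only through the control group and had to differ, which leaves 13 others. Without control replicates 2 and 5 there was 1 called lower and 1 higher, against 0.771% and 2.02% of all loci. With control replicate 5 alone left out, 14 were called.

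Motile cilium effectors, the genes of dynein arms, radial spokes, the central pair and other parts of the axoneme, made up nearly all of these calls. Of 31 tested effectors, 24 were called lower, against 2.58% of all tested loci. A mean FPKM of 0.1 was reached only through the control group by 11 of the 24, which had to differ, so that these counts are a description. In 29 of the 31, control replicates 2 and 5 were the 2 highest pigs, as in 6 of the 7 factors and 8.97% of all tested loci. LRRC46 (3.36 and 5.95 FPKM in control replicates 2 and 5) was between 0.246 and 0.279 in the other controls and between 0.137 and 0.163 in the rpFSH pigs. CFAP161 had 2.08 and 3.61 in these 2 controls, 0.0523 to 0.129 in the other 3, and at most 0.0454 in the rpFSH pigs. In both genes all 5 rpFSH pigs were below all controls, a separation that 0.547% of all tested loci had. Neither passed the limits without the 2 pigs (edgeR log2 fold change -0.71 and -2.28). CFAP161 entered the test only through the control group, and rpFSH replicates 1, 4 and 5 were listed at 0 for it, so that its separation lies near the floor. DRC7, a part of the nexin-dynein complex, had 2.49 and 4.88 in the 2 controls and 0.0157 to 0.0595 in the other 8 pigs. For HYDIN, a protein of the central pair, the values were 8.62 and 15.2 against at most 0.411. DNAH5, a dynein heavy chain, had 7.32 and 12.6 against at most 1.19, and CFAP52 had 3.44 and 5.96 against at most 1.32. DYNLRB2, a dynein light chain, was the 1 effector called lower without the 2 pigs (log2 fold change -1.26). SNTN and TEKT4 followed MCIDAS, with counts above 0 in control replicates 2 and 5 only. Without the 2 pigs, 29 effectors had counts, and 15 of them had a negative log2 fold change, with a median of -0.16. ENKUR, the effector with the highest mean FPKM, had 5.95 and 6.24 in the 2 pigs and from 1.80 to 2.89 in the others.

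**Figure D3:**
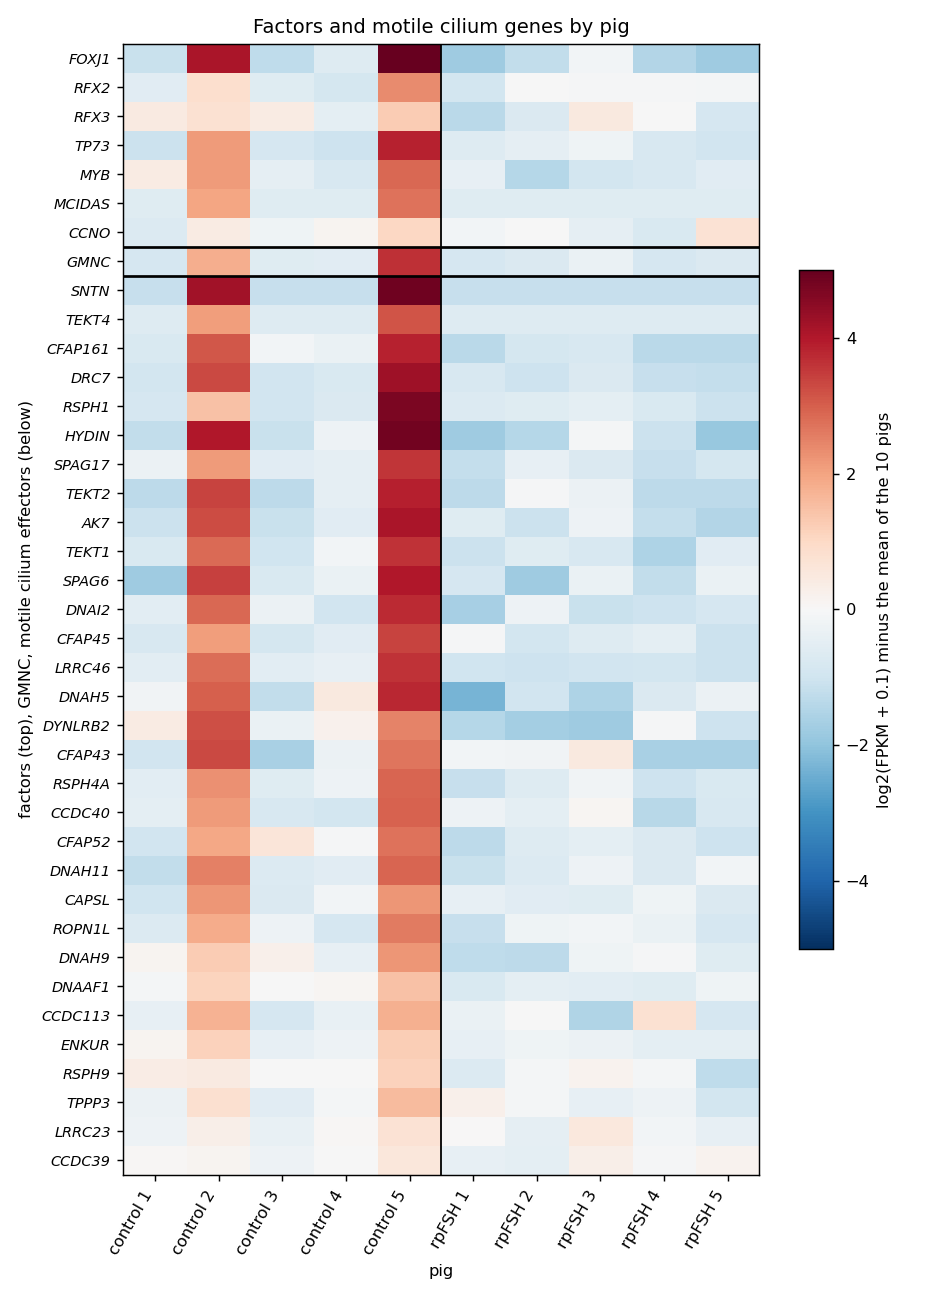
Level of the 7 factors (top rows), GMNC and the 31 motile cilium effectors (lower rows) in each of the 10 pigs (columns), as log2 (FPKM + 0.1) minus the gene's mean over the pigs, with red above and blue below the mean. The columns of control replicates 2 and 5 are red in nearly every row, while CCNO, LRRC23 and CCDC39 are close to the mean throughout.

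Among the partner regulators, 1 of 6 tested genes was called, and it reached the filter only through the control group. This gene, GMNC, which acts before MCIDAS, had an FPKM of 0.545 in control replicate 2 and 2.19 in control replicate 5 and at most 0.0460 in any other pig (edgeR log2 fold change -5.24 ± 1.86, SE, and -0.10 without the 2 pigs). The E2F partners that MCIDAS and GMNC bind were present in both groups and were not called. E2F4 had 4.35 ± 1.59 and 4.99 ± 1.14 FPKM (SD, n = 5 each) in the control and rpFSH treatment groups, and TRRAP, a chromatin cofactor, had 8.18 ± 1.41 and 8.06 ± 0.376. Of the relatives of the factors, such as other RFX, FOXJ and MYB genes, 0 of 10 were called, and 0 of 10 had control replicates 2 and 5 as the 2 highest pigs. RFX7, the most abundant of them, had a log2 fold change of -0.09. RFX8 had a count of 0 in all 10 pigs.

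Centriole amplification genes, which CCNO and MCIDAS are known to act on, were not called in either direction, with 0 of 9 and a median log2 fold change of -0.09. Only DEUP1, the scaffold protein of the deuterosome on which multiciliated cells make their centrioles, had control replicates 2 and 5 as the 2 highest pigs. It had 2.83 and 2.08 FPKM there and between 0.907 and 1.39 in the other 8, a difference between the groups that missed the limits (log2 fold change -0.54 ± 0.277, SE, two-sided exact permutation p = 0.103). Without these 2 pigs the edgeR log2 fold change of DEUP1 was -0.05. CCP110 and CNTROB, the most abundant genes of this list, had log2 fold changes of -0.29 and -0.09 with all pigs. In the Notch pathway, whose activity keeps cells from becoming multiciliated, 0 of 9 genes were called. NOTCH2 and RBPJ had log2 fold changes of 0.35 and 0.07. Without the 2 control pigs DLL1, a Notch ligand, was called higher (log2 fold change 1.20 in edgeR), as were 2.02% of all loci. With all pigs its log2 fold change was 0.53, and the 2 pigs left out were its highest controls (0.578 and 0.788 FPKM). Of the pigs kept, rpFSH replicates 1 and 2 had 0.322 and 0.252, beside 0.249 to 0.297 in the controls.

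Markers of other cells moved with the factors in part. Of 15 listed genes of oviduct-type and surface epithelium, 10 were matched and 9 tested. By edgeR 7 were called lower in the rpFSH treatment group, 1 of them tested only through the control group. Of all tested loci, 2.58% were called lower. Their summed FPKM was 95.7 in control replicate 2 and 154 in control replicate 5, between 10.2 and 19.4 in the other 3 controls and between 7.35 and 10.3 in the rpFSH pigs. OVGP1, the oviduct-specific glycoprotein, had an FPKM of 20.6 and 63.6 in these 2 controls and between 1.93 and 3.12 in the other 8 pigs. WFDC2, a secreted protein of the genital tract epithelium, had 29.7 and 25.1 against at most 0.941. CDH1, the cadherin that joins epithelial cells, had 7.62 and 11.8 against at most 1.43. None of these markers was at 0 in all pigs. Without the 2 pigs 1 of the 9 was called, against 0.771% of all loci called lower and 2.02% higher. This was MAL2, a protein of apical transport, which was lower (log2 fold change -1.69 in edgeR). Its FPKM was highest in control replicate 2, at 14.0, but 5.23 in control replicate 5, below the 10.9 of control replicate 1. All 5 rpFSH pigs (at most 3.24) were below all controls (at least 3.93), as at 0.547% of all tested loci (two-sided exact permutation p = 0.00794). The part of the epithelial cells in the values of the factors was not tested.

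The summed markers of ovarian tissue and of proliferation were above 0 in every pig. In none of these lists were control replicates 2 and 5 the 2 highest pigs by sum. Of the single oocyte genes, FIGLA was listed at 0 in 5 of 10 pigs, NOBOX in control replicate 2 and SYCP3 in rpFSH replicate 2. The summed FPKM ranged from 5.31 to 22.6 for 9 oocyte genes, from 12.9 to 191 for 7 granulosa genes and from 411 to 1783 for 6 stroma genes. Control replicates 2 and 5 had the 2 lowest oocyte sums, 5.31 and 7.57. Their granulosa sums were 30.3 and 22.3 (control median 59.4), and their proliferation sums 8.17 and 21.1 (control median 45.6). For stroma they had 524 and 1402 (control median 965). These 2 pigs were the highest in 0 of the 9 oocyte, 7 granulosa, 5 luteal and theca, 7 proliferation and 6 stroma genes tested. Of these 5 lists 1 gene was called by edgeR with all pigs, LUM, a matrix proteoglycan of the stroma, which was lower (log2 fold change -1.54). Without control replicates 2 and 5 LUM was not called (-0.67), and STAR, of the luteal and theca list, was called higher (4.91). With all pigs STAR was not called (0.14), and its highest FPKM, 532, was that of control replicate 2. The call rests on rpFSH replicates 1 and 4, with 448 and 121 FPKM. All other pigs kept in that fit had at most 5.67, in both groups. The luteal and theca sum was 2479 in control replicate 2 and 54.7 in control replicate 5, the lowest of the controls. By this sum the 2 pigs with high factors were at opposite ends of the control group. In control replicate 2 the sum came mostly from CYP11A1 (1758) and STAR. INSL3 of the same list went the other way, with 0.351 FPKM there, the lowest of the 10 pigs, and 41.5 in control replicate 5. Because MYB is also a gene of blood progenitors and lymphoid cells, 11 genes of these cells were taken as well. Their summed FPKM was 19.5 and 18.6 in control replicates 2 and 5, the 2 highest of the 10 pigs. The control median was 17.8, and the rpFSH pigs had at most 18.0. Of the 9 genes tested 0 were called, and 2 of 9 were highest in these 2 pigs. These were CD3E (0.775 and 0.742 FPKM in control replicates 2 and 5, at most 0.610 elsewhere) and CD8A (0.405 and 0.488, at most 0.319). LCK, with the highest mean of the list, had 4.48 and 3.49 there against a control mean of 5.10, so that the sum does not speak for each gene.

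**Figure D4:**
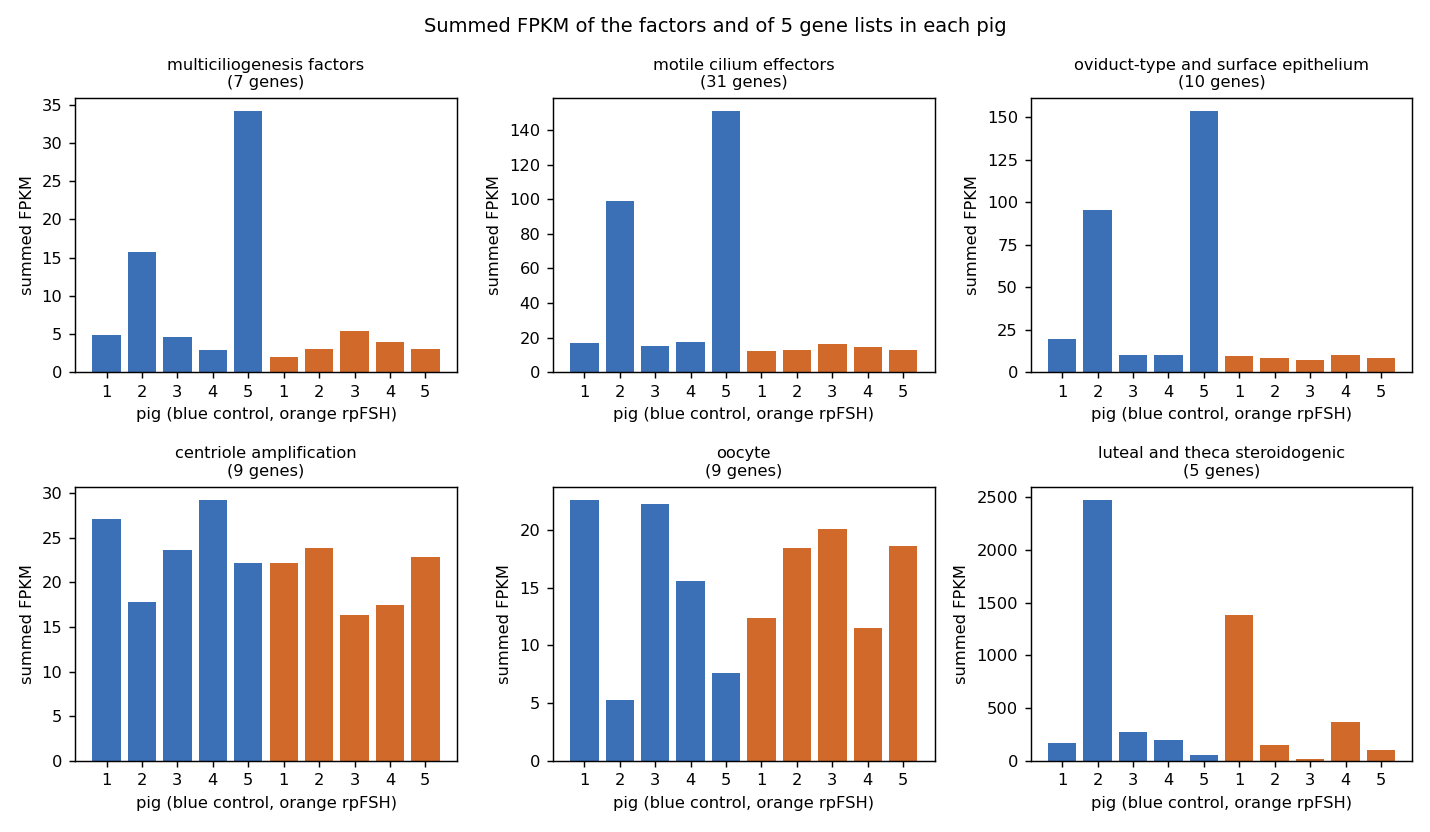
Summed FPKM (vertical axis from 0, with its own scale in each panel) of the 7 factors and of 5 gene lists in each of the 10 pigs, with 1 bar per pig, blue for the control group and orange for the rpFSH treatment group. The factors reach 15.7 in control replicate 2 and 34.2 in control replicate 5 and at most 5.32 elsewhere, with the same 2 bars high for cilium effectors and epithelium, both bars low for oocyte genes, and control replicate 2 alone high among the controls for steroidogenic genes.

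For each factor, the 3 tested protein-coding loci whose log2 (FPKM + 0.1) was most like it over the 10 pigs were listed by Pearson's r, as a description. For each, r is also given over the 8 pigs left after the 2 farthest from the factor's median were removed, which were control replicates 2 and 5 except for RFX3 (rpFSH replicate 1 and control replicate 5) and CCNO (control replicate 5 and rpFSH replicate 5). FOXJ1 was most like CFAP65 (r = 0.997, Spearman's rho = 0.979, and r = 0.926 over 8 pigs), HYDIN (0.996, 0.888 and 0.941) and VWA3A (0.995, 0.967 and 0.861). TP73 was most like DMBT1 (0.992, 0.688 and 0.680), DAW1 (0.991, 0.807 and 0.803) and GMNC (0.989, 0.632 and 0.498). For MYB these were MYO5C (0.977, 0.685 and 0.786), CFAP73 (0.974, 0.988 and 0.789) and TACR1 (0.972, 0.758 and 0.728). RFX2 was most like TMPRSS5 (0.978, 0.957 and 0.858), SEMA3C (0.968, 0.867 and 0.770) and ENSSSCG00000017934 (0.962, 0.685 and 0.618). RFX3 had ST14 (0.940, 0.964 and 0.878), RXFP4 (0.923, 0.927 and 0.923) and MREG (0.917, 0.927 and 0.891). Of the loci most like MCIDAS, ENSSSCG00000033478 and SFTA2 likewise had no count outside control replicates 2 and 5, and no r over the other 8 pigs exists for them. For CCNO the 3 loci carry no gene name in the table, and they were ENSSSCG00000031727 (0.921, 0.952 and 0.950), ENSSSCG00000032614 (0.914, 0.915 and 0.857) and ENSSSCG00000005247 (0.906, 0.903 and 0.842).

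MCIDAS and CCNO lie in a cluster of multiciliogenesis genes on chromosome 16, next to CDC20B and the microRNAs of the miR-449 family, which repress cell cycle and Notch genes in multiciliated cells. CDC20B has no protein-coding locus of its own in the table, but in RefSeq of the same build it spans 34294486 to 34354588, and an assembled locus without a name lies within it on the minus strand (34294509 to 34327276). This locus had a count of 553 in control replicate 2, 208 in control replicate 5 and at most 4 in the other 8 pigs. Here control replicate 2, not control replicate 5, was the highest pig (two-sided exact permutation p = 0.444 between the groups). The assembled locus named MIR449A (34346040 to 34346878, minus strand) had counts of 70 and 138 in these 2 pigs and between 14 and 58 in the others (exact permutation p = 0.183). This locus has no stated type, and the 2 loci typed as microRNA beside it did not show the same order. The one named MIR449A had counts from 0 to 6, with rpFSH replicate 5 highest, and the one named MIR449B had counts from 0 to 17, with control replicate 4 and rpFSH replicate 2 highest. GPX8, a peroxidase gene on the opposite strand within the same span, was highest in rpFSH replicate 1 at 12.3 FPKM, with 8.97 and 6.88 in control replicates 2 and 5.

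**Figure D5:**
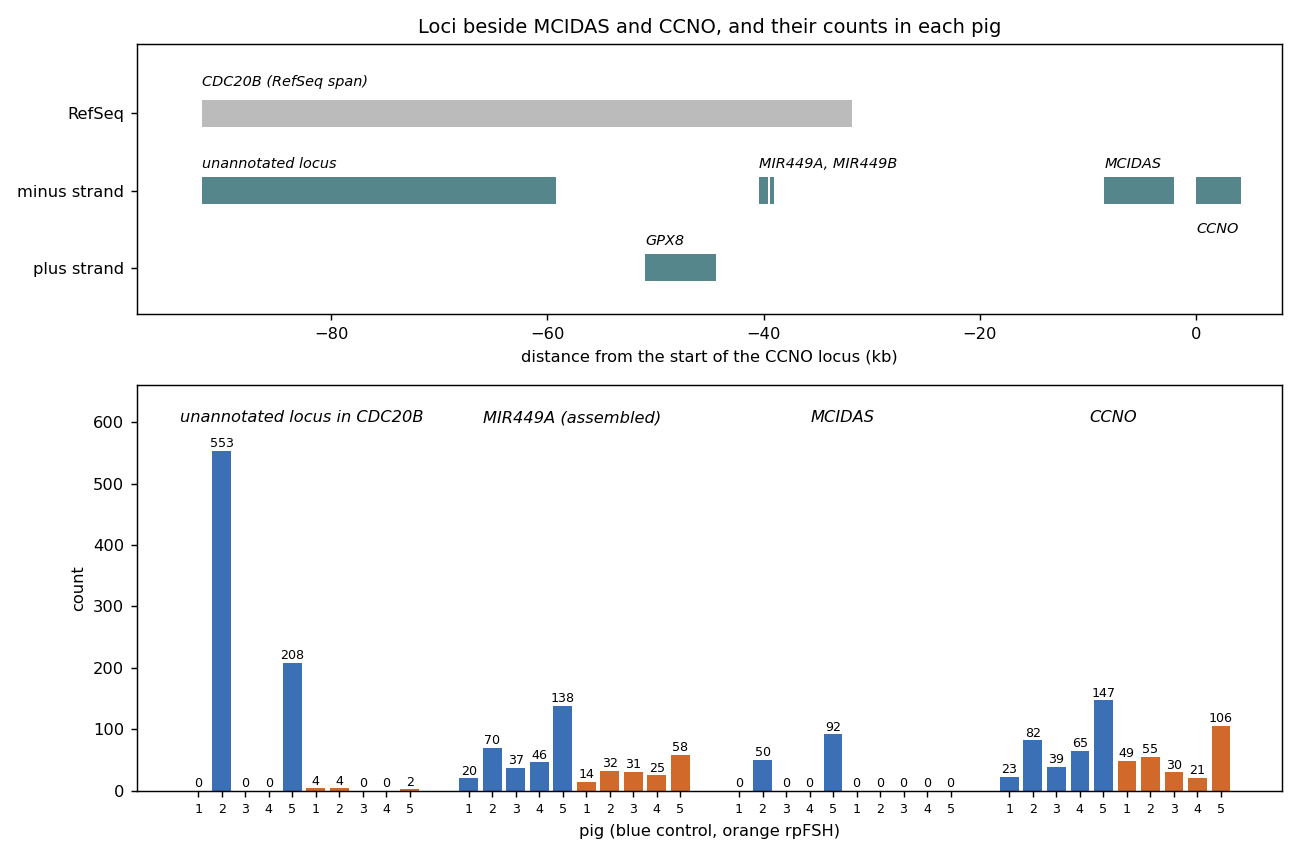
Top: loci next to MCIDAS and CCNO by strand, as distance in kb from the lower coordinate of the CCNO locus, with the RefSeq span of CDC20B in grey. Bottom: count (vertical axis from 0) of 4 of these loci in each pig, with 1 bar per pig, where the locus within CDC20B and MCIDAS are near or at 0 outside control replicates 2 and 5 (553 and 208, 50 and 92) and CCNO and the assembled MIR449A locus without a type are above 0 in all pigs.

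The loci of the table were set against the RefSeq spans of the same genes. They covered 99.9 to 100% of the span for FOXJ1, RFX2, RFX3, MYB and CCNO. The MCIDAS locus covered 72.3%. The TP73 locus covered 67.7% and began 19149 bp inside the RefSeq start, so that reads from the 5′ part of TP73 are not in its value. Inside TP73 lie 2 short assembled loci of no stated type, and control replicates 5 and 2 were the 2 highest pigs in both (two-sided exact permutation p = 0.159 and 0.183). Inside RFX2 lies 1 such locus, with control replicate 5 highest at 5.02 FPKM and rpFSH replicate 3 second at 2.05 (exact permutation p = 0.833). An antisense locus that overlaps RFX2 had the same 2 highest pigs. How the counts treat strand is not stated in the sources used here, so that reads of RFX2 and its antisense partner may not be told apart.

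RFX3 holds 5 assembled loci that carry its name without a stated type, 2 on its strand and 3 on the opposite one. Together they had 104897 counts over the 10 pigs, 4.15 times the 25297 of the RFX3 locus itself. In each of them control replicate 5 was highest and control replicate 3 second, so that control replicate 2 did not stand out. The largest (MSTRG.2631) had 2.81 ± 0.493 FPKM in the controls and 1.97 ± 0.617 in the rpFSH pigs (SD, n = 5 each), a difference with a two-sided exact permutation p of 0.0317. Over the 5 loci, all lower in the rpFSH treatment group, the exact permutation p was between 0.0159 and 0.0556. Of the 19909 tested loci without a stated type, 5.06% passed 0.05 unadjusted, and 2.53% did so with the lower level in that group. The lowest adjusted p over them was 0.898. The 5 loci lie in 1 gene and share their 2 highest pigs, so that they are not separate observations. In the table's gene ontology column, 5 of the 7 factors carried a term that names a cilium, whereas TP73 and MYB carried none.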

How the data were processed

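RNA-seq values of ovaries from 10 gilts were used, 5 per group, with 1 library per pig. According to the methods, the authors removed adaptors and poor bases with Cutadapt, mapped to Sscrofa11.1 using Hisat2 and Bowtie2, and obtained transcripts and their FPKM from StringTie and Ballgown. The submitters' processing notes list HISAT2 2.0, Bowtie 0.12.2 and StringTie 1.3.0. The deposited table holds FPKM and counts for each locus in each pig, and the way the counts were derived is not given in the sources used here. The labels name poly(A) selection, whereas the methods describe rRNA removal with dUTP strand marking.

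Counts were tested with edgeR 4.0.16 (quasi-likelihood, TMM) in R 4.3.3 over the 15170 protein-coding loci whose FPKM averaged at least 0.1. DE was called at P under 0.05 with a log2 fold change above 1 or below -1, with Benjamini-Hochberg adjustment over all of them given beside it. The SE is that of the log2 fold change. Two-sided exact permutation tests over all assignments of the pigs used log2 (FPKM + 0.1), and their smallest p is 0.00794. Alternatives were DESeq2 1.42.0, limma 3.58.1 on log2 FPKM, other scalings, filters and pseudocounts, the replicate number as a block, and each pig left out. Other calculations used Python 3.11.15, numpy 2.4.6, pandas 2.3.3 and scipy 1.17.1. The fits were tested on simulated data.

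Genes were matched by symbol, then by gene identifier. Members and lists were chosen with earlier results of these data known. Named genes are the members, from each pathway list up to 6 called genes with the smallest P and the 2 with the highest mean FPKM, from each marker list the 3 with the highest mean FPKM and up to 4 called, and the 3 loci most like each member. Some genes that meet these rules are not reported here. SNTN, TEKT4, DEUP1, DLL1, RFX8, FIGLA, NOBOX, SYCP3, CD3E, CD8A and the loci beside or inside members were named after their values were seen. The P values set the difference between the groups against the spread between pigs. Sequences were not used here.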

Additional observations from a re-analysis of the deposited data

Results flagged for a closer look

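A pig was marked where its gap to the nearest pig of its own group of 5, divided by the range of the group, was above Dixon's critical value of 0.71. Chance marks about 1 in 20 groups, and 6 of the 37 groups tested were marked here, 4 of them for members. In the control group, control replicate 5 was far above the next pig for RFX2 (6.26 against 2.15 FPKM) and for TP73 (3.39 against 0.964). In the rpFSH treatment group, rpFSH replicate 3 was highest for FOXJ1, with an FPKM of 0.212 against 0.0488 in the next pig. For RFX2, rpFSH replicate 1 was lowest in that group, with 0.562 against 1.07. The summed FPKM of the 5 luteal and theca steroidogenic genes was 2479 in control replicate 2 against 269.9 in the next control, and 1384 in rpFSH replicate 1 against 372.5 in the next pig of its group. FOXJ1, MYB and MCIDAS were not marked in the control group, since 2 control pigs were high in each.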

How the results depend on the processing

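The 4 member calls of edgeR came out as 4 with DESeq2, with RLE, upper-quartile or total-count scaling, without the FPKM filter and with no limit on the fold change. They were 1 with limma on log2 (FPKM + 1), on log2 (FPKM + 0.1) and after quantile normalization (MYB in each), 0 with limma after upper-quartile scaling, 1 at a mean FPKM of at least 1 (FOXJ1; 4 members were then not tested), and 1 (TP73, higher) without control replicates 2 and 5. All limma calls here take P from the log2 values but the fold change from the ratio of the group mean FPKM. On log2 (FPKM + 1) itself the group means of MYB differed by -0.64, short of the limit of -1. The number of members called by edgeR ranged from 2 to 5 with 1 pig left out. The list genes called, 25, were 5 with limma, 2 without the 2 pigs, and 14 to 26 with 1 pig left out. Members with an exact permutation p under 0.05, 1, were 0 without the 2 pigs and 0 to 2 with 1 pig left out. Over all loci, edgeR called 468 and limma 172. With the replicate number as a block, edgeR called 1 member (MCIDAS), 11 list genes and 190 loci in all, and the exact sign-flip within same-numbered pigs gave 0 members. The numbers do not pair the pigs by the labels, and deviations of same-numbered pigs correlated between -0.337 and 0.0275, with 0 of 10 pigs closest to its own number. Directions turned without the 2 pigs for RFX2 (edgeR log2 fold change 0.62, exact permutation difference 0.45), TP73 (1.44 and 0.37) and CCNO (0.35 and 0.13). They also turned with 1 pig left out for CCNO (edgeR, -0.78 to 0.069) and RFX2 (exact, -0.74 to 0.070), in both without control replicate 5, and in the difference of medians for RFX2 (0.52) and TP73 (0.19). The causes of these shifts were not tested. Depth limits MCIDAS, whose count was 0 in 8 pigs.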
